A study of Mus musculus with 6 samples.

Results

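The genes of synaptic vesicle release were examined in the cochlear modiolus of mice with and without degeneration of spiral ganglion neurons (SGNs). They were chosen by name from the mouse annotation: protein-coding genes of the synaptotagmin (Syt), synapsin (Syn), syntaxin (Stx), syntaxin-binding (Stxbp), Vamp, Snap, Sv2, complexin (Cplx), Rab3, Unc13 and Rims families, and Syp. The annotation held 74 such genes, and 66 of them had at least 1 transcript in the count table, out of 33676 genes that did. The rule reads gene symbols and no measured value.

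The study compared C57BL/6 mice that received saline (control) with mice whose hair cells were destroyed by drugs (degenerated). Per the study's methods, the mice were 8-week-old males, and the degenerated group received 1 g/kg kanamycin sulfate under the skin and, 30 min later, 0.4 g/kg furosemide into the abdominal cavity. Kanamycin is an aminoglycoside antibiotic and furosemide a loop diuretic, and together they kill the sensory hair cells that excite the SGNs. RNA was taken from the modiolus, the central axis of bone around which the cochlea winds and in which SGN cell bodies and the auditory nerve lie, at day 30 for the degenerated group, and sequenced in 3 libraries per group. The labels name SGNs as the cell type, but the tissue was the whole modiolus, with its glia, blood vessels, bone and marrow. Nothing in the labels says that the libraries came from separate animals, so that p-values measure the spread between libraries, which may be technical.

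A neuron releases transmitter when a vesicle fuses with the membrane of its terminal. Fusion is driven by SNARE proteins: a VAMP on the vesicle zips together with SNAP-25 and a syntaxin on the plasma membrane. Synaptotagmins sense the calcium that triggers fusion, complexins hold the partly assembled complex, Munc18 proteins (Stxbp genes) guide its assembly, Munc13 (Unc13 genes) and RIM proteins prime vesicles at the active zone, and Rab3 proteins and synapsins handle the vesicle before release. SGN cell bodies lie in the modiolus while their output terminals lie in the brainstem, so RNA measured here is that of the cell bodies and of the other cells around them.

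Of these genes, 3 met the criteria used here for a change, all of them downregulated: Rab3d, Rab3a and Vamp1. The criteria were a log2 fold change of more than 0.2 in size and p under 0.01 before correction in edgeR's quasi-likelihood test, and no member was upregulated by them. The study states these thresholds for its comparison of knockout with wild-type mice and none for controls against degeneration. The 3 genes were 5.26% of the 57 members tested, while among all 14118 genes tested 2.73% were called, 0.715% lower and 2.01% higher. After correction for multiple testing, edgeR gave no member (smallest adjusted p = 0.281) and 0 of all genes an adjusted p under 0.05. Before correction, 1367 genes (9.68%) were under 0.05, 3.6% of all genes being lower and 6.08% higher, and 11 members (19.3%), of which 7 were lower and 4 higher. DESeq2 called 6 members lower (also Rims1, Rims3 and Stx16) and 1 higher (Syn2) by the same criteria, beside 2.17% and 3.39% of all genes, and after correction 383 genes (2.71%), of which 1 was a member (Rab3d, adjusted p = 0.00103). limma-voom called 0 genes after correction and had 1387 under 0.05 before it. The members as a whole had a median log2 fold change of -0.06, beside -0.003 over all genes tested, with 30 of 57 members (52.6%) below 0, beside 50.3% of all genes.

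The libraries held between 12480876 and 15549319 counts. Levels are given as CPM (counts per 1000000 counts of the library), scaled between libraries by the TMM method. Single genes are ranked by level only in TPM, which also divides by transcript length before scaling to 1000000. Sums of CPM over gene lists are not corrected for length and serve to compare libraries. A gene described as low at a given CPM has few counts. The deposited table lists 65535 transcripts, so most genes are counted in part. It held 218 of the 439 annotated transcripts of the members and every transcript of only 7 members. In 48 members the listed transcripts included one with at least 90% of the longest annotated coding sequence, and in 18 members they did not. Below, a full-length coding transcript means one that meets this 90%, whether or not the longest annotated form is the main one. The other 8 members (Cplx1, Cplx2, Rab3c, Rims4, Stx19, Syt10, Syt13 and Vamp2) are not analysed here.

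What a partly listed gene's count describes is seen best in the sequences of Snap25 and Vamp1, the most abundant members. SNAP-25 is made in forms that differ by the choice between 2 versions of exon 5, which lie next to each other on the plus strand of chromosome 2. The listed transcript, Snap25-201, holds the exon at chr2:136770057-136770174, and Snap25-202, which is not listed, holds the one at chr2:136769743-136769860 (GRCm38, GENCODE M21). The exons are both 118 bases long and differ at 31 bases, shown in capitals.
Snap25-201: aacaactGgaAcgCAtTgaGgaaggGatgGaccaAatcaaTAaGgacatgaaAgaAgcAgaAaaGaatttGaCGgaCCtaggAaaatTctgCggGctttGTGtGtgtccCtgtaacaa
Snap25-202: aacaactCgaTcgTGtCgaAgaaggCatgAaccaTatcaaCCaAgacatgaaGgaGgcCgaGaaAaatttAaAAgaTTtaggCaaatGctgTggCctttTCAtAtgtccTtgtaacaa
All Snap25 counts given here are therefore those that the authors' counting assigned to Snap25-201. For Vamp1, the listed coding transcripts Vamp1-201 and Vamp1-203 share their first 340 coding bases and then end differently, within the last bases that encode the membrane anchor. Vamp1-201 splices to a further exon (its end spans chr6:125219608-125220063, plus strand), and Vamp1-203 reads on past the splice site (chr6:125219608-125219648). The ends are shown to the last base before the stop codon, with the bases after the shared part in capitals.
Vamp1-201: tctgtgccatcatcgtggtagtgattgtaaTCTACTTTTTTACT
Vamp1-203: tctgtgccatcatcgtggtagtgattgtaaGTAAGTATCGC
A further transcript, Vamp1-202, has a longer coding sequence (513 bases, against 354 and 351) and is not listed.

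**Figure D1:**
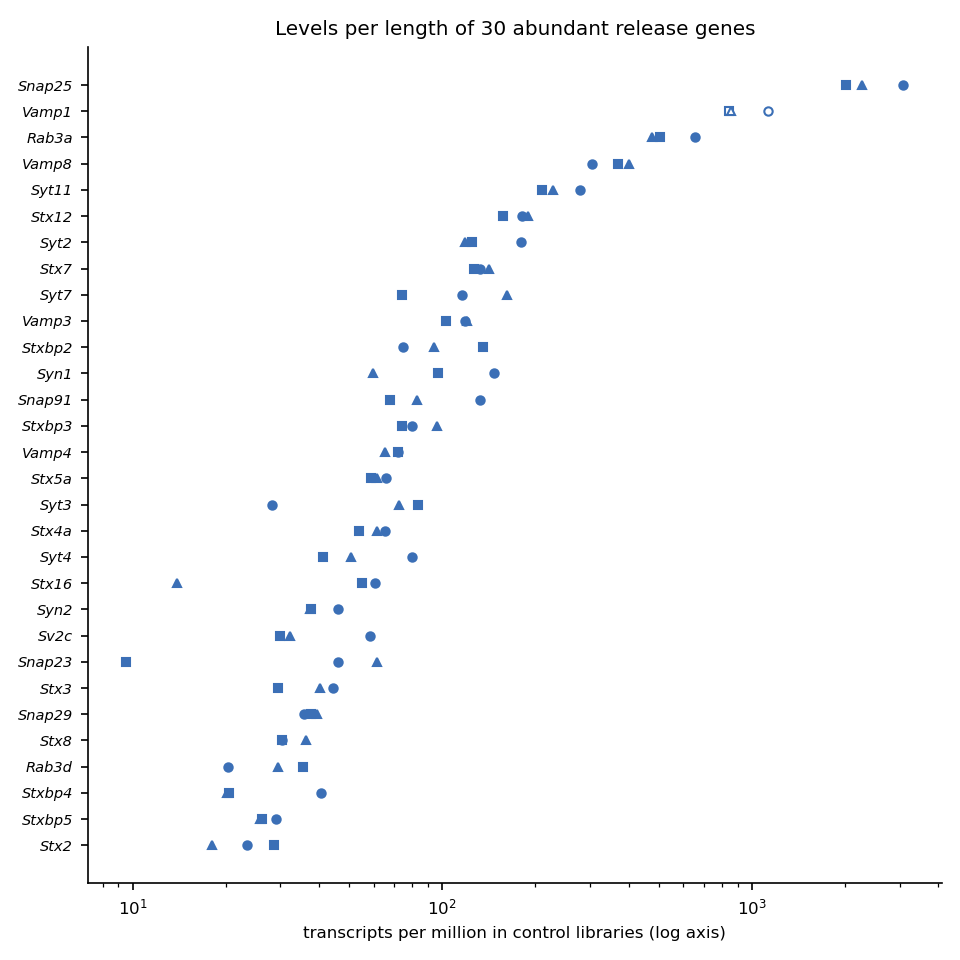
TPM (log axis) of 30 of the most abundant release genes in control replicates 1 (circle), 2 (square) and 3 (triangle), with open symbols where no full-length coding transcript is listed. Snap25 and Vamp1 lead, with 2450 and 942 on average, and from Stx12 downwards the points of neighbouring genes overlap.

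Among the listed transcripts of the members, a few genes held most of the summed level, led by the neuronal Snap25, Vamp1 and Rab3a. Members absent from the table, such as Vamp2, could not be ranked, and those listed in part, such as Syp, may rank too low. Per length, Snap25 led in control libraries with 2450 ± 560 TPM (SD, n = 3), followed by Vamp1 with 942 ± 162 and Rab3a with 545 ± 97.5, and the ranges of these genes did not overlap. Snap25 and Vamp1 alone held 52.6% of the summed TPM of the members' listed transcripts and the first 7 genes 75.2%. Next came Vamp8, a SNARE of endosomes and secretory granules in many cell types (358 ± 48.1 TPM), Syt11 (239 ± 35.3), the endosomal syntaxin Stx12 (175 ± 16.5), Syt2 (141 ± 33.5), the endosomal syntaxin Stx7 (134 ± 7.78), Syt7 (117 ± 43.9) and Vamp3 (114 ± 9.63). The control libraries of Rab3a, Vamp8, Syt11 and Stx12 did not overlap with those of their neighbours above, while from Stx12 down to Vamp3 neighbours did overlap. Syt2, the calcium sensor of fast synapses, and Syt7 had the highest means of the calcium-sensing synaptotagmins that have a coding transcript in the table. The spread of the libraries does not settle their order, and Syt7 also overlapped with Syt3 (61.4 ± 29.3 TPM).

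Among the vesicle proteins, Rab3a and Rab3d were the ones called. Rab3a, the main Rab3 GTPase of neurons, which tethers vesicles to RIM at the active zone, had 460, 400 and 360 CPM in control replicates 1, 2 and 3 and 273, 293 and 206 in degenerated replicates 1, 2 and 3. The groups did not overlap, and the mean was 0.63 times that of controls (log2 fold change -0.66 ± 0.17 SE, adjusted p = 0.359 in edgeR). The call was lost when control replicate 1 or 2 or degenerated replicate 1 or 3 was left out, with log2 fold changes between -0.72 and -0.52. Rab3d, a Rab3 protein known mostly from secretory granules of gland and mast cells, had 39.8, 79.3 and 63.0 CPM in controls and 13.3, 18.9 and 24.2 in degenerated libraries. Every degenerated library was below every control, at 0.31 times the control mean (log2 fold change -1.69 ± 0.34 SE, adjusted p = 0.281 in edgeR). Without control replicate 3 or without degenerated replicate 2 it narrowly missed the criteria, at -1.68 and -1.70. Rab3d was the call with the largest fold among the members, at a level of 28.5 TPM in controls against 545 for Rab3a. Which cells of the modiolus gave the Rab3d counts was not tested.

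Groups that do not overlap are frequent in this comparison: degenerated libraries were all below the controls in 7.37% of the genes tested and all above in 10.3%. Among the members, 5 (8.77%) were below in this way (Snap25, Vamp1, Rims1, Rab3a and Rab3d) and 7 (12.3%) above (Syn2, Syn3, Syp, Rab3b, Stx6, Unc13a and Unc13b). With 3 libraries against 3, an exact two-sided permutation test cannot go below 0.1 for a single gene. The Rab3a call also has a limit of annotation, since exons of Rab3a overlap those of Mpv17l2 on the opposite strand and the kit is not stated to keep the strand.

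The remaining vesicle proteins were not called, and their fold changes lay on both sides of 0. Syn2, a synapsin that coats vesicles of the reserve pool, had 82.2, 77.2 and 71.8 CPM in controls and 117, 105 and 93.4 in degenerated libraries. All degenerated libraries lay above all controls, but the difference (log2 fold change 0.45 ± 0.13 SE, adjusted p = 0.40 in edgeR) missed the criteria, which it met in DESeq2. Syn1, the other major synapsin of neurons, had 241, 180 and 107 CPM against 174, 204 and 175, with overlapping groups (log2 fold change 0.07 ± 0.29 SE). Exons of Syn1 and Syn2 overlap those of Araf and Timp4, respectively, on the opposite strand.

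The Sv2 genes encode transporter-like glycoproteins of the vesicle membrane that bind synaptotagmin. Sv2c had 271, 158 and 163 CPM in controls and 139, 182 and 132 in degenerated libraries, with overlapping groups (log2 fold change -0.39 ± 0.26 SE). Sv2b was low, at 3.96 to 6.02 CPM in controls and 0.634 to 4.66 in the degenerated group. Rab3b, another Rab3 gene, was near the floor, with 0.927, 0.707 and 0 CPM in controls and 2.39, 1.83 and 2.92 in degenerated libraries (log2 fold change 2.12 ± 1.02 SE, adjusted p = 0.576 in edgeR). Of Syp, Syn3 and Sv2a, partial or noncoding transcripts are listed and no full-length coding one. Syp, which encodes synaptophysin, the most used marker of synaptic vesicles, had 2.83 to 3.06 CPM in controls and 3.28 to 7.04 in degenerated libraries, values that do not describe its main coding transcript.

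**Figure D2:**
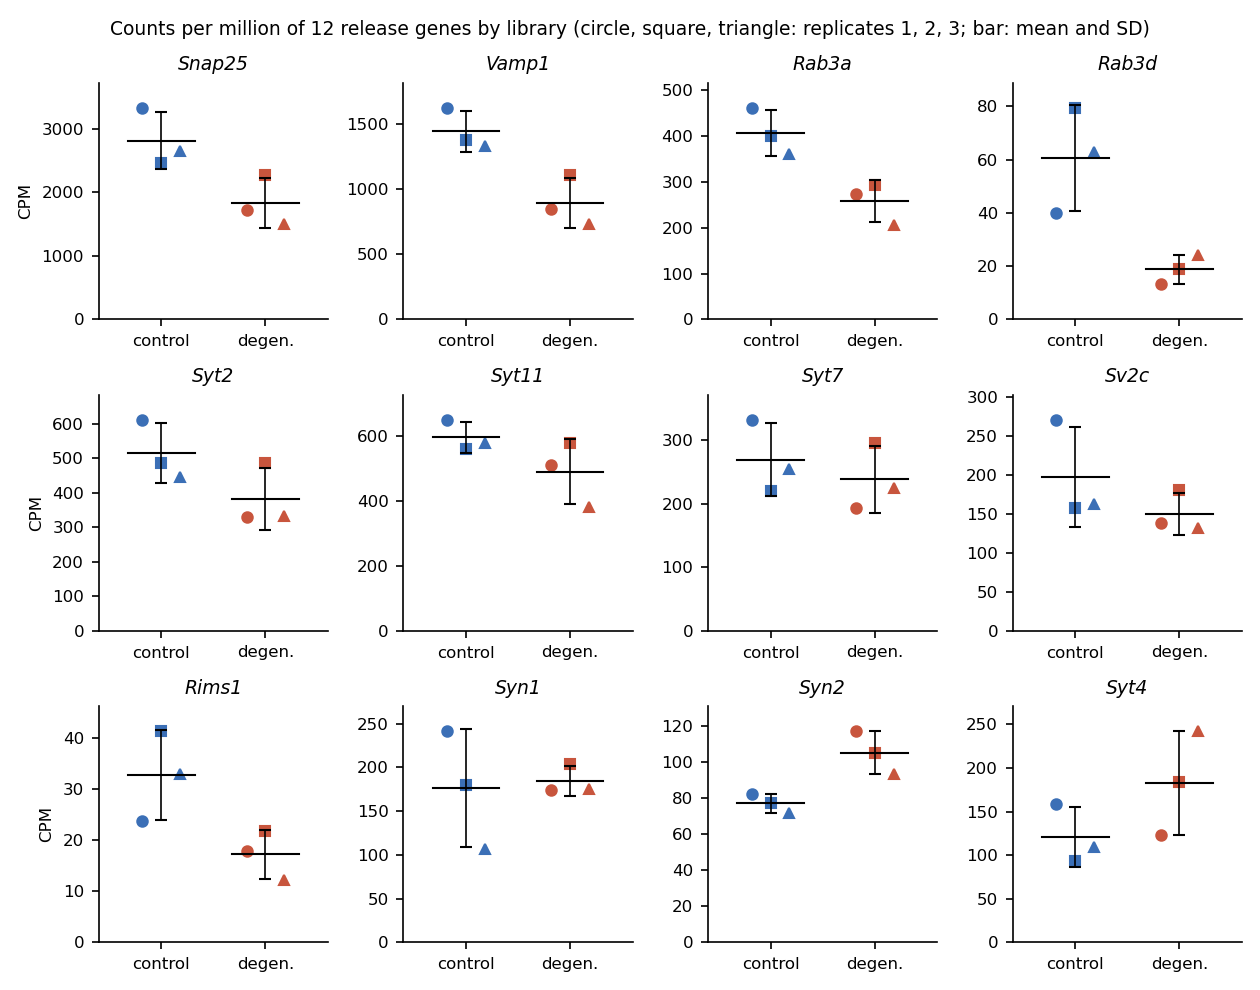
Levels in CPM of 12 release genes in control (blue) and degenerated (red) libraries, with the mean and SD in black and symbols for replicates 1 (circle), 2 (square) and 3 (triangle). The groups are apart in Snap25, Vamp1, Rab3a, Rab3d and Rims1 (degenerated lower) and in Syn2 (degenerated higher), and overlap in the others.

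The SNAREs of neuronal exocytosis held the most abundant members. Vamp1 (synaptobrevin 1), the vesicle SNARE of many brainstem, spinal and sensory neurons, had 1621, 1380 and 1332 CPM in control replicates 1, 2 and 3 and 845, 1108 and 731 in degenerated replicates 1, 2 and 3. The groups did not overlap, and Vamp1 was downregulated to 0.62 times the control mean (log2 fold change -0.69 ± 0.18 SE, adjusted p = 0.362 in edgeR). Its call was lost when any library but degenerated replicate 2 was left out, with log2 fold changes between -0.76 and -0.57.

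Snap25, the plasma membrane SNARE that pairs with the VAMPs, had 3324, 2470 and 2658 CPM in controls and 1723, 2274 and 1500 in degenerated libraries. The groups were apart, but the lowest control and the highest degenerated library were close. The fold change was close in size to that of Vamp1 and Rab3a (log2 fold change -0.62 ± 0.20 SE, adjusted p = 0.421 in edgeR) and missed the criteria. Without degenerated replicate 2 it met them, with a log2 fold change of -0.82. Stx1a, a syntaxin of the neuronal plasma membrane, was low, with 4.90 to 13.4 CPM in controls and 7.34 to 8.52 in degenerated libraries.

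The summed level of the neuronal SNAREs was 4952, 3862 and 4003 CPM in control replicates 1, 2 and 3 and 2578, 3393 and 2240 in degenerated replicates 1, 2 and 3, a ratio of means of 0.64. The libraries had the same order by this sum as by the summed level of 25 neuron markers such as Nefh, Tubb3 and Calb2. The marker sum was 15066, 11747 and 13043 CPM in controls and 9019, 10774 and 7372 in degenerated libraries (ratio 0.68). Both sums rested mostly on a few genes. In controls, Snap25 and Vamp1 averaged 2817 and 1444 of 4272 CPM. Calb2, Nefh, Nefm and Nefl averaged 2738, 2548, 1885 and 1851 of 13285 CPM. Tubb3 was level, at 471 CPM in controls and 458 in degenerated libraries. In bulk RNA, fewer neurons and less RNA per neuron cannot be told apart. Of these 25 markers, 2 were called lower (Calb2 and Pvalb, calcium-binding proteins of SGNs) and 1 higher (Gap43, a growth cone protein), 16 lay below 0 and 9 above, and their median log2 fold change was -0.07. Stmn3, also on that list, is not analysed here.

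Hair cells have ribbon synapses with release genes of their own, and 2 of 13 tested hair cell markers were called lower, 9 lying below 0 and 4 above. The called ones were Ocm and Slc26a5, which mark outer hair cells (log2 fold changes -5.83 and -5.11), and the 15 listed hair cell markers summed to 927 to 1321 CPM in controls and 758 to 826 in degenerated libraries. Of these markers, Chrna9 was at 0 in all libraries, and Chrna10 is not analysed here. Otof, the calcium sensor of inner hair cell release, had 313, 193 and 202 CPM in controls and 257, 80.2 and 143 in degenerated libraries, with overlapping groups. The part of neuron and hair cell loss in the values of the release genes was not tested.

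Among the 6 calcium-sensing synaptotagmins tested, none was called and none had groups apart. Syt2 had 611, 487 and 445 CPM in controls and 330, 487 and 333 in degenerated libraries (log2 fold change -0.42 ± 0.21 SE, adjusted p = 0.576 in edgeR). Degenerated replicate 2 lay within the range of the controls and the other degenerated libraries below it. Syt7, a slow, high-affinity calcium sensor, had 332, 220 and 255 CPM against 194, 297 and 225 (log2 fold change -0.18 ± 0.22 SE). Syt3, of the same high-affinity kind, varied widely within both groups, from 15.4 to 109 CPM in controls and from 22.3 to 81.6 in degenerated libraries, and its fold change was -0.30 ± 0.77 SE on the log2 scale.

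The other calcium sensors were low. Syt5 had 0.566 to 3.64 CPM in controls and 2.45 to 6.41 in degenerated libraries. Syt6 had 1.06, 3.61 and 1.21 CPM against 5.95, 2.32 and 5.92 (log2 fold change 1.27 ± 0.64 SE, adjusted p = 0.590 in edgeR), with overlapping groups. Syt9 and Syt1 are listed without a coding transcript. Syt1, the classic calcium sensor of forebrain synapses, had at most 0.775 CPM in any library and was not tested. The summed level of the calcium-sensing members was 787 to 966 CPM in controls and 598 to 817 in degenerated libraries.

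Synaptotagmins that do not bind calcium for fusion included the abundant Syt11, a regulator of vesicle recycling, with 648, 558 and 578 CPM in controls and 509, 578 and 381 in degenerated libraries (log2 fold change -0.28 ± 0.17 SE). Syt4, which is carried on dense-core vesicles, had 159, 93.1 and 109 CPM in controls and 123, 184 and 242 in degenerated libraries. Its groups overlapped (log2 fold change 0.60 ± 0.31 SE, adjusted p = 0.599 in edgeR). The 5 tested members of this class held 0 calls, with log2 fold changes from -0.56 to 0.60.

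Priming and active zone genes had no calls, but held several of the widest differences. Rims1, the main RIM scaffold of the active zone, had 23.7, 41.2 and 33.0 CPM in controls and 17.9, 21.7 and 12.2 in degenerated libraries. All degenerated libraries lay below the lowest control (log2 fold change -0.92 ± 0.32 SE, adjusted p = 0.444 in edgeR), and in DESeq2 the gene met the criteria. Rims3, which encodes a short RIM protein without the Rab3-binding part, had 15.5, 15.7 and 1.53 CPM in controls and 1.78, 2.39 and 2.60 in degenerated libraries. Control replicate 3 was as low as the degenerated libraries, and the log2 fold change of -2.27 ± 0.85 SE (adjusted p = 0.480 in edgeR) became -2.79 without it, which met the criteria, as the gene did in DESeq2.

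Unc13a and Unc13b, whose main coding transcripts are not listed, had at most 2.32 and 10.5 CPM in any library, with degenerated libraries all above controls (log2 fold changes 1.41 ± 0.54 SE and 1.07 ± 0.38 SE, adjusted p = 0.482 and 0.456 in edgeR). Munc13 proteins open syntaxin for SNARE assembly. Unc13c, with a full-length transcript, had 8.29 to 12.2 CPM in controls and 7.18 to 20.2 in degenerated libraries. Rims2 ranged from 0.574 to 8.14 CPM in controls and from 3.69 to 11.7 in degenerated libraries. Unc13d, the Munc13 of blood cells, had 15.4, 54.3 and 32.1 CPM in controls and 12.3, 20.8 and 27.5 in degenerated libraries (log2 fold change -0.75 ± 0.52 SE).

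Complexins could hardly be read. The retinal complexin Cplx3 had at most 0.479 CPM in any library, and Cplx4 was at 0 in all but 1 library, which held 6 counts. Neither was tested.

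The Sec1/Munc18 and tomosyn family had no calls among 6 tested members. Stxbp5 (tomosyn), an inhibitor of SNARE assembly, was steady, with 104 to 110 CPM in controls and 88.6 to 107 in degenerated libraries. Stxbp3, a Munc18 of many tissues, was likewise close between groups (log2 fold change 0.02 ± 0.14 SE).

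The SNAREs of other membrane steps, which work in endosomes, the Golgi and the plasma membrane of most cells, had no calls among 19 tested members and a median log2 fold change of 0.002. Stx12 had 265, 260 and 297 CPM in controls and 277, 274 and 262 in degenerated libraries (log2 fold change -0.02 ± 0.10 SE). Vamp8 and Vamp3 were equally close, with log2 fold changes of 0.03 ± 0.17 SE and 0.06 ± 0.11 SE. The differences between these genes and Vamp1, Snap25 or Rab3a were not tested.

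Other members of this class had single libraries that stood apart. Stx7 had 214, 226 and 253 CPM in controls and 52.3, 294 and 46.6 in degenerated libraries, so that degenerated replicate 2 lay above all controls and the other degenerated libraries far below. Its log2 fold change of -0.82 ± 0.74 SE (adjusted p = 0.773 in edgeR) became -2.24 without that library, which met the criteria. Stx16, a syntaxin of the trans-Golgi network, had 119, 124 and 29.8 CPM in controls and 24.5, 31.8 and 41.3 in degenerated libraries (log2 fold change -1.49 ± 0.55 SE, adjusted p = 0.480 in edgeR), with control replicate 3 within the degenerated range. Without that library the log2 fold change was -1.91 and met the criteria, as the gene did in DESeq2. Stx6, a Golgi and endosome syntaxin listed in part, had 0.957 to 1.52 CPM in controls and 1.74 to 4.04 in degenerated libraries (log2 fold change 1.13 ± 0.44 SE, adjusted p = 0.496 in edgeR).

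Stx11, a syntaxin of blood cells, had 0.265, 11.7 and 27.4 CPM in controls and 0.752, 8.66 and 23.7 in degenerated libraries. The libraries with little of it, replicate 1 of each group, also had little of the granulocyte, mast cell and platelet markers, whose sum was 264, 12919 and 6403 CPM in controls and 608, 1837 and 4569 in degenerated libraries (10 of 13 markers listed, 0 called, Cpa3 at 0 in all libraries). Within each group, Rab3d and Unc13d ordered the libraries as this sum did. The part of blood cells in the values of Stx11, Unc13d and Rab3d was not tested. Erythroid markers varied in the same tissue from 6391 to 40556 CPM in controls and from 3459 to 16241 in degenerated libraries. The 7 listed of 10 macrophage markers summed to 432 to 492 and 561 to 743 CPM, with C1qb and C1qc called higher. These 2 genes averaged 183 and 165 of 466 CPM in controls. Of the 6 tested macrophage markers, 5 lay above 0 and 1 below (Cd68, log2 fold change -1.54). Aif1, not tested, had 15.1, 0.07 and 16.2 CPM in controls and at most 0.137 in degenerated libraries. Bone cell markers summed to 738 to 1188 CPM in controls and 243 to 456 in degenerated libraries, with Bglap and Bglap2 called lower. Schwann cell and satellite glia markers summed to 5532 to 9690 and 4849 to 7662 CPM, with 0 called. The lists for oligodendrocytes (753 to 936 and 807 to 1197 CPM) and lymphocytes (14.0 to 322 and 34.9 to 170) held 0 calls. The skeletal muscle list summed to 732 to 1236 and 329 to 519 CPM, most of it Pvalb, its only call, which is also a neuron marker. Muscle genes proper stood out in control replicate 3, as in Ckm with 92.8 CPM there and at most 0.752 in any other library, and Myh2 was at 0 in all libraries.

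**Figure D3:**
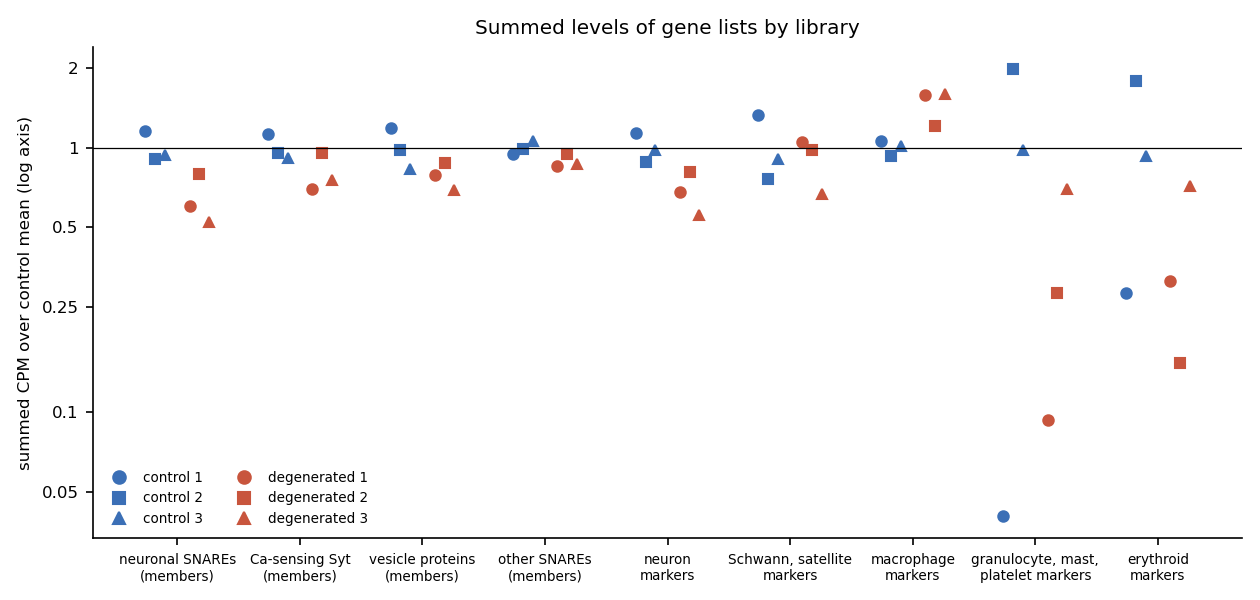
Summed CPM of 4 classes of release genes and 5 lists of cell type markers in each library, divided by the mean of the controls (log axis). Neuronal SNAREs and neuron markers order the 6 libraries alike, with degenerated replicate 2 the highest of its group, and the blood cell lists spread most within groups.

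**Figure D4:**
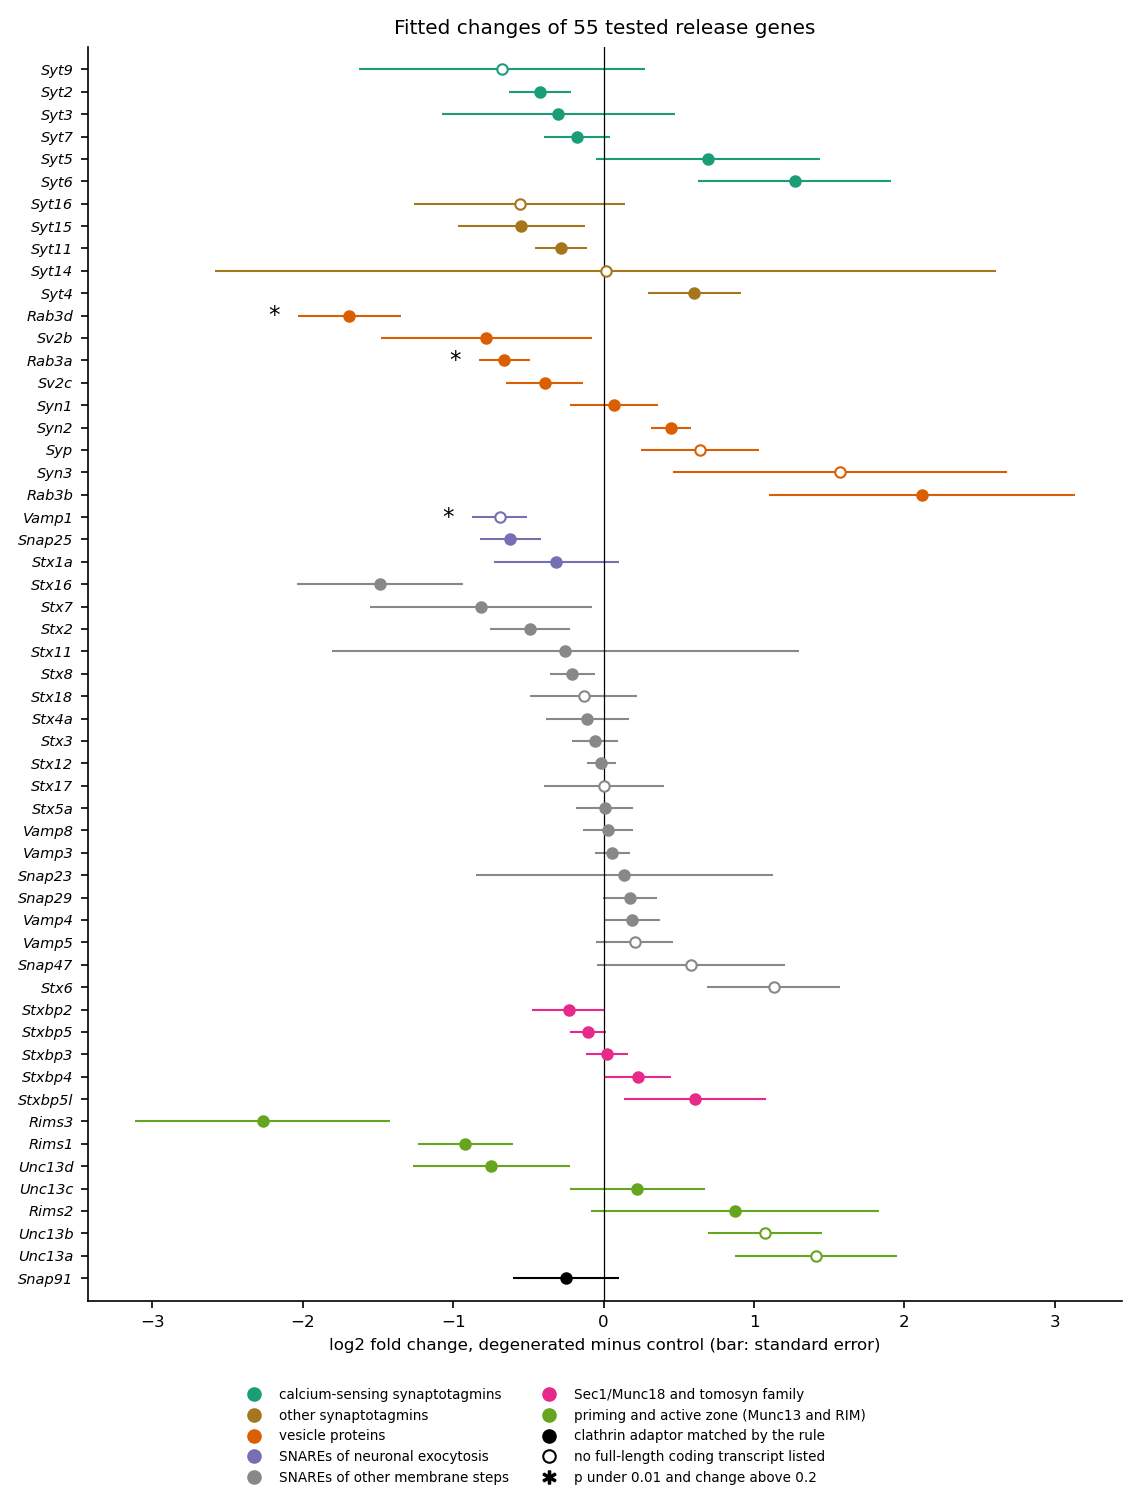
Fitted log2 fold change (degenerated minus control) with its standard error for 55 of the 57 tested members, in groups by role, with open points where no full-length coding transcript is listed and stars at the 3 called members. Of the open points 9 of 13 lie above 0, and of the filled points 17 of 42.

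How completely a member was listed also went with its values. Among the 43 tested members with a full-length coding transcript, 26 lay below 0 and 17 above, with a median log2 fold change of -0.18, and 2 were called lower (Rab3a and Rab3d). Among the 14 without one, 4 lay below and 10 above, with a median of 0.39, and 1 was called lower (Vamp1). Vamp1 is in this class because the unlisted Vamp1-202 is longer, with 513 coding bases against 354 in the listed Vamp1-201. Apart from Vamp1, the members without one were low, with group means of at most 10.8 CPM. The threshold of 90% was chosen after the data were seen, and the difference between the classes was not tested.

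**Figure D5:**
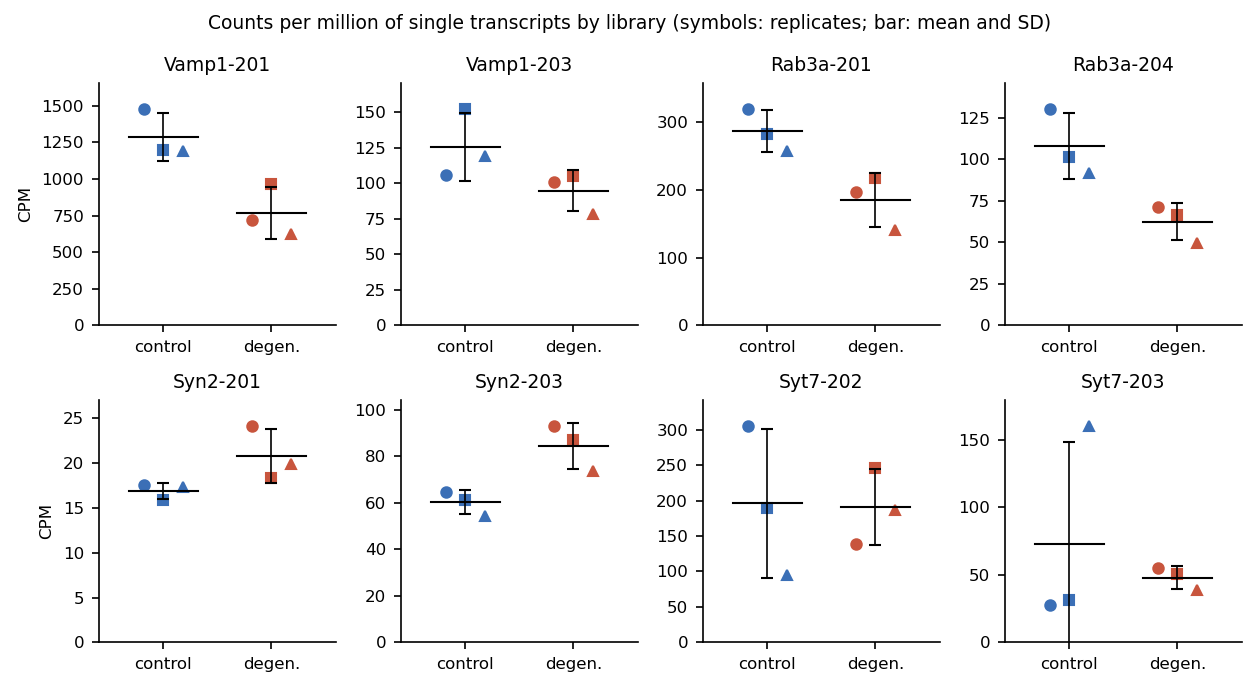
Levels in CPM of 8 single transcripts of Vamp1, Rab3a, Syn2 and Syt7 by library, with the mean and SD in black. Vamp1-201 and both Rab3a transcripts are lower in all degenerated libraries, and Syt7-203 is at 160 CPM in control replicate 3 and at 27.5 to 54.9 in the other libraries.

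Single transcripts showed to which listed transcript the authors' counting assigned each gene's counts. Of the 122 tested transcripts of the members, 3 were called lower and 2 higher, beside 0.652% lower and 1.14% higher among 26065 transcripts tested. After correction, 4 of all transcripts (0.0153%) and none of the members' had an adjusted p under 0.05 in edgeR. With 1 library left out, Vamp1-201 was called lower only without degenerated replicate 2, and Rab3a-204 in no such fit. Rab3d-201 was called lower only without control replicate 1 or without degenerated replicate 3. Vamp1-201, whose end is printed above, held 85.0% to 91.2% of the listed Vamp1 counts in every library and was called lower (1479, 1196 and 1193 CPM in controls against 718, 966 and 622, log2 fold change -0.79 ± 0.19 SE, adjusted p = 0.527 in edgeR). Vamp1-203 had 106, 152 and 120 CPM in controls and 101, 105 and 78.4 in degenerated libraries, with groups that were barely apart (log2 fold change -0.45 ± 0.20 SE, adjusted p = 0.676 in edgeR).

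Rab3a-201 and Rab3a-204 encode the same protein from coding sequences of 660 bases. Rab3a-204 was called lower (log2 fold change -0.83 ± 0.22 SE, adjusted p = 0.548) and Rab3a-201, with 68.4% to 74.1% of the gene's listed counts, had a log2 fold change of -0.68 ± 0.19 SE (adjusted p = 0.573, both in edgeR). Rab3d-201 was the listed transcript behind all Rab3d counts and was the third called lower. For Syn2, the short form Syn2-203 (75.9% to 82.6% of the listed counts) had a log2 fold change of 0.44 ± 0.16 SE and the long form Syn2-201 one of 0.26 ± 0.24 SE. They share their first 1373 coding bases and then differ in the C-terminal part.

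The transcripts called higher were both fragments of Munc13 genes at low level. Unc13a-204, a partial coding transcript, had 0 counts in every control and 34 counts over the degenerated libraries. This is at least 12.3-fold higher when 3 counts are taken as the upper limit over the control group. Its call was lost with the replicate number as a block and when any degenerated library was left out. Other transcripts at 0 in every control were not called, such as Unc13d-201 and Syt6-202, with 164 and 80 counts over the degenerated libraries. Unc13b-214, a transcript with a retained intron, had 5, 5 and 7 counts in controls and 33, 42 and 32 in degenerated libraries (log2 fold change 2.70 ± 0.35 SE, adjusted p = 0.179 in edgeR). In Syt7, control replicate 3 assigned 62.7% of the listed counts to Syt7-203, and the other libraries 8.28% to 28.3%. The gene's summed count did not stand apart in that library, which had 255 CPM.

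Other genes of the release pathway were listed by role, outside the name rule. Of 90 such genes, 79 were tested, with a median log2 fold change of -0.003. By the criteria 1 was lower and 1 higher, beside 0.715% lower and 2.01% higher among all 14118 genes tested. The lower one was Sncb (beta-synuclein, log2 fold change -0.75 ± 0.16 SE, adjusted p = 0.307 in edgeR). The higher one was Cask (an active zone scaffold kinase, 2.49 ± 0.62 SE, adjusted p = 0.348 in edgeR). Their values were 257, 212 and 222 CPM against 139, 160 and 112 for Sncb, and 15.8, 13.1 and 8.04 CPM against 58.8, 124 and 24.9 for Cask. By role, the median was -0.17 over 15 tested genes of transmitter loading and the vesicle membrane, -0.33 over 18 of SNARE disassembly and priming, -0.10 over 21 of the active zone scaffold and 0.14 over 25 of vesicle endocytosis. Nsf, the ATPase that takes used SNARE complexes apart, had 627, 506 and 456 CPM in controls and 367, 445 and 332 in degenerated libraries (log2 fold change -0.47 ± 0.17 SE, adjusted p = 0.469 in edgeR). Snap91, an adaptor of clathrin-coated vesicles that the name rule includes, had 67.4 to 174 CPM in controls and 85.1 to 117 in degenerated libraries.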

How the data were processed

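The authors deposited 1 table of raw counts per Ensembl transcript for 6 libraries, not normalized. The study's methods name Hisat2 and StringTie, while the submitters' processing notes name Bowtie 0.12.2 and the builds mm8 and mm10. Neither states the annotation or the step that gave whole counts. Counts were joined to GENCODE M21 (GRCm38), where 65272 of 65535 transcripts matched (99.6%), the 263 others with 0.125% of counts were left out, and the transcripts of a gene were summed.

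Library totals were 15154155, 14418480 and 15549319 (control) and 14841769, 14262782 and 12480876 (degenerated). All 6 libraries were fitted in edgeR 4.0.16 (R 4.3.3): filterByExpr, TMM factors of 0.983 to 1.02, robust quasi-likelihood F test, Benjamini-Hochberg adjustment over all genes, and the same for transcripts. Within groups, log2(CPM + 1) correlated at 0.913 to 0.948. The SE is the log2 fold change over the square root of F. TPM use the listed transcripts. Alternatives were DESeq2 1.42.0, limma-voom (limma 3.58.1), other normalizations and filters, genes with every transcript listed, a block for the replicate number, and leaving out single libraries in turn. The steps were tested on simulated data.

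The members, lists and marker genes were chosen with earlier results of these data known. Members named are those called, the 10 with the largest fold change, the 10 with the most counts, all of the calcium-sensing, vesicle, neuronal SNARE, complexin and priming roles, and paralogs of a called member. Other members and genes were named after their values were seen. Exon sequences were read from GENCODE M21 transcripts. Results for some members are not reported here, although counts, sums and medians over the members include them.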

Additional observations from a re-analysis of the deposited data

How the results depend on the processing

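The number of release genes called depended on the test and on single libraries. DESeq2 called 6 lower and 1 higher (785 genes in all, against 385), and among genes with every transcript listed, of which 6 tested ones were members, 0 release genes and 135 genes were called. The median log2 fold change of the members was -0.06, -0.013 in limma-voom, -0.0047 with no filter, 0.10 over genes with every transcript listed and, in an alternative chosen after seeing the data, -0.18 over members with a full-length coding transcript. Leaving out 1 library at a time gave 1 to 4 release genes lower and 0 higher, 258 to 497 genes in all, medians of -0.10 to 0.028, 0 to 3 release transcripts lower and 1 to 4 higher. Under those fits the log2 fold changes of Syt3 (-0.78 to 0.20), Stx12 (-0.053 to 0.038), Syn1 (-0.20 to 0.35) and Unc13c (-0.36 to 0.49) took both signs. The cause was not tested. Deviations from the group means of same-numbered libraries correlated at 0.16, -0.09 and 0.07 over all genes tested. Over the tested members these values were 0.46, -0.21 and -0.12, and the highest was 0.53, between control replicate 2 and degenerated replicate 3. A library did not always correlate best with its own number, so the numbers were not read as pairs. With the replicate number as a block, 218 genes, 2 release genes lower (Rab3a and Rab3d), a median of -0.013 and 1 release transcript higher were found. Of 405 values of 31 named genes under 14 alternatives, 378 kept their direction and side of the criteria, 12 no longer met them, 8 newly met them and 7 changed sign. The members' median SE was 0.35 on the log2 scale with 3 libraries a group. Differences as large as those of Snap25 (-0.62 ± 0.20 SE) and Rims3 (-2.27 ± 0.85 SE) missed the criteria.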
